A study of Schmidtea mediterranea with 60 samples.

Results

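The polarity genes *notum* and *wnt1*, which are switched on at planarian wounds, were followed through a regeneration time course. The rule that chose them uses their names and transcript IDs and no threshold on a measured value. *notum* is dd_Smed_v6_24180_0_1 and *wnt1* is dd_Smed_v6_28398_0_1, which makes 2 of the 28742 transcripts in the table, and both passed the filter on low counts. The names came with that choice, since no table used here pairs these IDs with gene names. The animals were asexual *Schmidtea mediterranea* (strain CIW4), a freshwater flatworm that regrows any missing body part. All animals, controls included, were fed double-stranded RNA 4 times over 2 weeks and cut 7 days after the last feeding. The RNA fed matched either *bmp4*, which encodes a secreted bone morphogenetic protein, or *unc-22*, a nematode gene that served as the control. Wound tissue facing anteriorly was taken from post-pharyngeal (tail) pieces at 0, 3, 6, 16, 24 or 48 hours post-amputation (hpa), which gave 12 groups of 5 replicates and 60 libraries. Each replicate pooled 5 wounds and is therefore not 1 animal, RNAi by feeding reaches the whole body, and *p*-values measure the spread between such pools.

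Planarian muscle cells carry the positional information of the body, and both genes are expressed in muscle after injury. *wnt1* encodes a secreted Wnt ligand that specifies posterior identity, and its RNA is induced at wounds whichever way they face. *notum* encodes a secreted enzyme that inactivates Wnt proteins, and it is induced preferentially at wounds that face anteriorly, where it favours a head over a tail. Later in regeneration both RNAs mark small groups of cells at the poles, with *notum* at the head tip and *wnt1* at the tail tip. In these bulk samples, fewer cells of a type and less RNA per cell cannot be told apart.

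Library totals ranged from 5.92 to 23.9 M counts (M, mega) and had a median of 17.3 M, and 18510 transcripts passed the filter on low counts. The targeted transcript, *bmp4* (dd_Smed_v6_17402_0_1), was examined first because the labels name it. It was higher, not lower, under the label at 0 hpa, with 46 to 58 counts per library in control and 101 to 200 in the libraries labelled *bmp4* RNAi. Its counts were mixed at 3, 16 and 24 hpa, where the labelled libraries held between 4 and 347, and its mean was lower under the label at 6 and 48 hpa. The edgeR quasi-likelihood test called only the difference at 48 hpa (log2 fold change -1.74, adjusted *p* = 0.0094). Any reads from the fed double-stranded RNA cannot be told from the animals' own *bmp4* RNA in these counts. The counts therefore settle neither the labels nor the knockdown. Libraries are named by their labels, and each direction below rests on those labels. By contrast *equinox* (dd_Smed_v6_20318_0_1), the secreted-protein gene central to the study, was lower under the label at all 6 times, with log2 fold changes from -2.70 to -1.71 (edgeR adjusted *p* of 3.30e-12 or less).

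Both members were rare transcripts. *notum* had at least 17 raw counts in every library, with a median of 59.5 and a sum of 4227. *wnt1* had 3 to 52 with a median of 17.5 and a sum of 1262. In mean abundance *notum* lay above 36.2% of the tested transcripts and *wnt1* above 20.4%. Levels are given as CPM (read counts divided by the library total in M, after scaling by trimmed mean of M-values, TMM), and the median coefficient of variation within a group was 15.7% for *notum* and 23.4% for *wnt1*. Counting error alone gave medians of 12.8% and 24.2%, so for *wnt1* the median spread between replicates was of the size that counting gives. By group, the spread exceeded counting error in 10 of the 12 groups for *notum* and in 7 for *wnt1*.

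In control animals *notum* was higher in every library at 3 hpa than in any at 0 hpa, was called by edgeR from 6 hpa, peaked at 16 hpa at 8.87 times its 0 hpa mean, and stayed above its starting level to 48 hpa. At 0 hpa the 5 control libraries, in replicate order, held 22, 25, 19, 17 and 22 *notum* counts, or 1.32, 1.37, 1.10, 1.01 and 1.23 CPM. At 3 hpa they held 23, 37, 29, 32 and 33 counts (1.54, 2.14, 1.78, 1.64 and 2.13 CPM), and at 6 hpa 50, 104, 78, 72 and 79 counts (4.08, 4.49, 5.93, 4.26 and 4.98 CPM). The 3 groups did not overlap, and each lay above the one before. The 16 hpa libraries held 960 counts together, of which replicates 1, 2, 3 and 5 had 166, 217, 173 and 146, and their levels of 10.8, 13.2, 9.46, 12.2 and 7.89 CPM were the highest of the 12 groups. At 24 hpa they were 74, 119, 77, 116 and 91 (4.47, 6.27, 4.64, 5.81 and 5.43 CPM), and at 48 hpa 108, 102, 102, 106 and 113 (5.36, 4.87, 5.87, 6.35 and 6.18 CPM). The groups at 24 and 48 hpa overlapped each other and lay wholly below the 16 hpa group.

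Tested across all transcripts, *notum* was called higher than at 0 hpa at 4 of 5 later times in control. The 3 hpa value of 0.61 on the log2 scale (SE 0.223, edgeR adjusted *p* = 0.079) missed the threshold, while the exact permutation test of that step passed (adjusted *p* = 0.0132 over 5 pairs), and by 6 hpa the rise was 1.96 (SE 0.201, adjusted *p* = 7.03e-12 by edgeR). It reached 3.14 after 16 h (SE 0.190, edgeR adjusted *p* = 6.84e-21), where only 20 of the 18510 tested transcripts had a larger rise. The later rises, 24 and 48 hpa, were 2.14 and 2.24 (edgeR adjusted *p* = 1.19e-13 and 9.51e-15). The shares of tested transcripts called in these comparisons were, in order of time, 8.81%, 25.1%, 32.4%, 33.6% and 41.1%.

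In the libraries labelled *bmp4* RNAi *notum* started higher, rose less and ended below where it began. At 0 hpa these libraries held 79, 44, 44, 46 and 59 counts, or 3.47, 2.41, 2.56, 2.56 and 3.20 CPM, all above every control library at that time. At 3 hpa they held 46, 33, 46, 24 and 37 counts (2.86, 2.46, 3.07, 4.00 and 2.16 CPM), and at 6 hpa 75, 48, 99, 61 and 67 counts (3.83, 3.18, 4.66, 3.76 and 3.26 CPM). The 3 hpa libraries again lay above all controls, though by as little as 2.16 against 2.14 CPM, whereas at 6 hpa 4 of the 5 lay below all controls. The 16 hpa counts were 108, 77, 75, 60 and 89 (4.99, 5.04, 4.22, 4.48 and 5.70 CPM), with all 5 libraries below every control. At 24 hpa they were 47, 73, 45, 33 and 31 (2.98, 4.94, 2.48, 2.29 and 1.59 CPM), and at 48 hpa 48, 24, 38, 37 and 24 (2.49, 1.17, 1.72, 1.59 and 1.23 CPM). Replicate 2 at 24 hpa was the only one of that group inside the control range, and at 48 hpa all 5 libraries lay below every control.

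**Figure D1:**
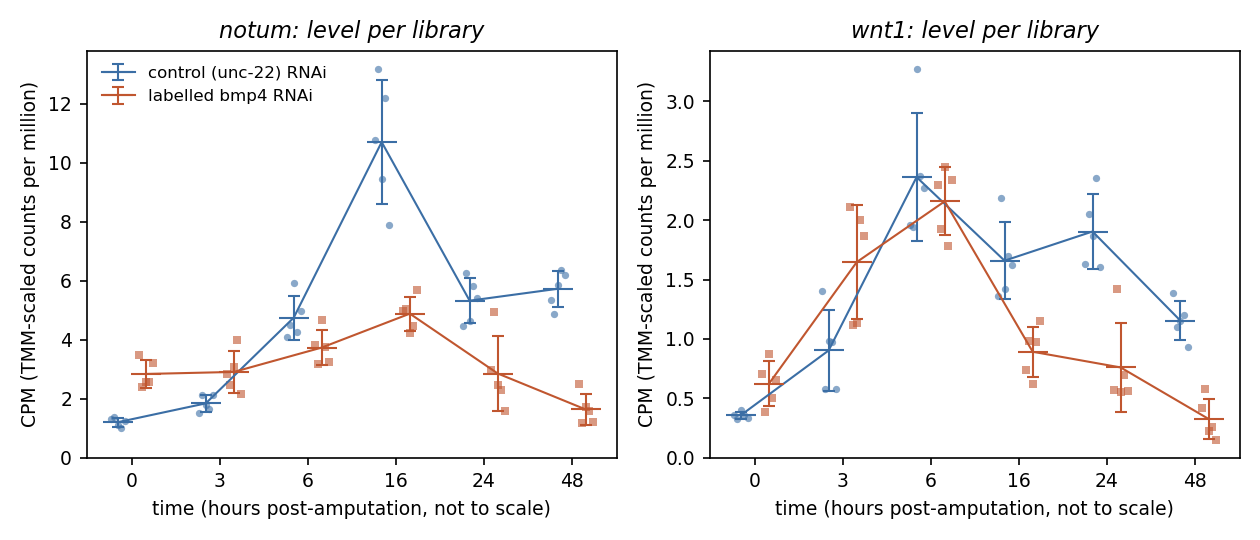
*notum* (left) and *wnt1* (right) in TMM-scaled CPM (vertical axes, starting at 0) against time in hpa (horizontal axes, evenly spaced). Points are single libraries (circles, control; squares, labelled *bmp4* RNAi) and the lines and bars give the mean and SD of 5 libraries. Control *notum* peaks at 16 hpa at 10.7 CPM while the labelled group reaches 4.89 CPM, and *wnt1* has its highest mean at 6 hpa in both conditions.

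Within the labelled libraries *notum* was called higher than at 0 hpa at 16 hpa, lower at 48 hpa, and not called at 3, 6 or 24 hpa. The log2 fold changes were -0.027 at 3 hpa (95% interval -0.41 to 0.36) and 0.39 at 6 hpa (0.037 to 0.75), with edgeR adjusted *p* of 0.957 and 0.148. At 16 hpa the change was 0.77 (SE 0.176, edgeR adjusted *p* = 0.000456), against 3.14 in control. By 24 hpa it was back at -0.019 (95% interval -0.39 to 0.35), and it ended at -0.80 after 48 h (SE 0.193, edgeR adjusted *p* = 0.00124). In the same order of times, 10.5%, 13.1%, 28.2%, 32.6% and 25.6% of all tested transcripts were called.

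Set against control at the same time, *notum* was higher under the *bmp4* RNAi label at 0 and 3 hpa and lower from 16 hpa on. At 0 hpa the mean was 2.84 ± 0.466 CPM against 1.21 ± 0.149 CPM in control (SD, n = 5 each), which is 1.24 on the log2 scale (SE 0.208, adjusted *p* = 7.70e-06 in edgeR). The 3 hpa means were 2.91 ± 0.703 and 1.85 ± 0.280 CPM, which is 0.60 (SE 0.207, adjusted *p* = 0.0461 in edgeR). This call was lost when replicate 1, 3 or 4 of either group was left out, with log2 fold changes of 0.51 to 0.59 and edgeR adjusted *p* of 0.0788 to 0.136, the lowest value being without replicate 4 of the labelled libraries, the smallest library of the series. At 6 hpa the difference of -0.34 (SE 0.173, edgeR adjusted *p* = 0.19) was not called, although the exact permutation test of log2(CPM + 1) gave an adjusted *p* of 0.0476 over the 6 times. By 16 hpa the labelled mean of 4.89 ± 0.572 CPM stood below the control mean of 10.7 ± 2.11 CPM, by -1.13 (SE 0.161, adjusted *p* = 1.54e-07 in edgeR). A day after the cut the difference was -0.92 (SE 0.177, adjusted *p* = 6.83e-05 in edgeR). It was largest at 48 hpa, where the mean of 1.64 ± 0.531 CPM stood at 0.286 times the control mean of 5.73 ± 0.610 CPM (log2 fold change -1.80, SE 0.182, edgeR adjusted *p* = 2.84e-12).

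*wnt1* rose in control libraries already at 3 hpa, had its highest mean at 6 hpa, and remained above its 0 hpa level at 48 hpa. At 0 hpa the control libraries held 6, 6, 7, 6 and 6 *wnt1* counts, or 0.360, 0.328, 0.405, 0.358 and 0.336 CPM. At 3 hpa they held 21, 10, 16, 19 and 9 counts (1.40, 0.579, 0.982, 0.973 and 0.581 CPM), and at 6 hpa 24, 45, 43, 40 and 36 counts (1.96, 1.94, 3.27, 2.37 and 2.27 CPM). The 3 hpa group lay wholly above the 0 hpa group but spread more than 2-fold, and the 6 hpa group lay wholly above both. The 16 hpa counts were 21, 36, 26, 36 and 30 (1.36, 2.19, 1.42, 1.70 and 1.62 CPM). At 24 hpa they were 27, 39, 31, 47 and 27 (1.63, 2.05, 1.87, 2.36 and 1.61 CPM), and at 48 hpa 28, 23, 20, 20 and 17 (1.39, 1.10, 1.15, 1.20 and 0.930 CPM). From 6 to 48 hpa every control library exceeded every control library at 0 hpa.

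All 5 later times were called higher than 0 hpa for control *wnt1*. The rise was already 1.32 on the log2 scale at 3 hpa (SE 0.301, adjusted *p* = 0.00176 in edgeR) and grew to 2.69 at 6 hpa (SE 0.266, adjusted *p* = 2.18e-12 in edgeR). At the latter time 31 of the tested transcripts had a larger rise. Later values were 2.19, 2.40 and 1.67 at 16, 24 and 48 hpa (edgeR adjusted *p* of 1.99e-06 or less). Because only 31 *wnt1* counts were read over the 5 control libraries at 0 hpa, the pooled level there was 0.357 CPM with an exact 95% Poisson interval of 0.243 to 0.507, which covers counting error only.

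Under the *bmp4* RNAi label *wnt1* rose at 3 and 6 hpa and was then lower than control from 16 hpa. At 0 hpa the labelled libraries held 16, 7, 15, 9 and 12 counts, or 0.703, 0.383, 0.873, 0.502 and 0.651 CPM, with 4 of 5 above every control. At 3 hpa they held 34, 15, 17, 12 and 32 counts (2.11, 1.12, 1.14, 2.00 and 1.87 CPM), and at 6 hpa 45, 29, 52, 29 and 48 counts (2.30, 1.92, 2.45, 1.79 and 2.34 CPM). At 3 hpa 3 of the 5 libraries lay above every control, and at 6 hpa 2 lay just below the control range. At 16 hpa the counts were 16, 15, 11, 13 and 18 (0.739, 0.982, 0.618, 0.971 and 1.15 CPM). At 24 hpa they were 9, 21, 10, 10 and 11 (0.571, 1.42, 0.551, 0.695 and 0.563 CPM), and at 48 hpa 8, 12, 5, 6 and 3 (0.415, 0.583, 0.226, 0.258 and 0.153 CPM). At each of these 3 times all 5 labelled libraries lay below every control library.

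Called rises of *wnt1* from 0 hpa in the labelled libraries were limited to 3 and 6 hpa, where they were 1.37 and 1.79 on the log2 scale (SE 0.255 and 0.237, edgeR adjusted *p* = 0.0001 and 4.00e-08). At 16 hpa the value was 0.49 (95% interval -0.047 to 1.03, edgeR adjusted *p* = 0.178) and at 24 hpa 0.26 (-0.30 to 0.81, edgeR adjusted *p* = 0.515). At 48 hpa *wnt1* was called lower than at 0 hpa, at -0.92 (SE 0.306, edgeR adjusted *p* = 0.0199). That call was lost without replicate 3 of the 0 hpa group (-0.79), without replicate 3 or 5 of the 48 hpa group (-0.82 and -0.76), and in a fit of only the libraries compared (-0.93, edgeR adjusted *p* = 0.0965).

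**Figure D2:**
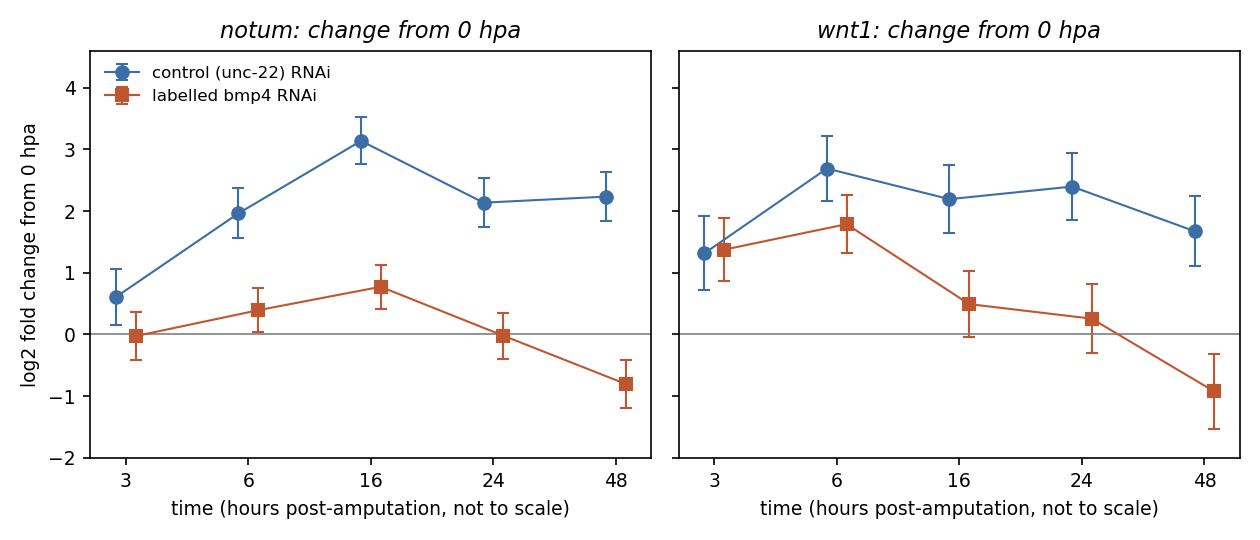
Log2 fold change of *notum* (left) and *wnt1* (right) from 0 hpa (vertical axes) at each later time in hpa (horizontal axes, evenly spaced), from the edgeR fit, in control (circles) and labelled *bmp4* RNAi (squares) libraries, with 95% intervals. The 2 conditions lie close together for *wnt1* at 3 hpa (1.32 and 1.37) and are furthest apart at 48 hpa for both genes.

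Compared with control at the same time, *wnt1* followed the sequence of *notum*, from above control early to below it late. The mean at 0 hpa was 0.623 ± 0.188 CPM against 0.357 ± 0.0298 CPM (SD, n = 5 each), and the difference of 0.79 on the log2 scale was not called (SE 0.313, adjusted *p* = 0.0984 in edgeR), while the exact permutation test gave an adjusted *p* of 0.0238. By 3 hpa the difference of 0.85 was called (SE 0.246, adjusted *p* = 0.013 in edgeR). The 3 hpa call was lost without control replicate 2 (0.72) or 5 (0.73), without labelled replicate 1 (0.72), and with only the 10 libraries compared (0.86, edgeR adjusted *p* = 0.0595). At 6 hpa it was -0.11 (95% interval -0.52 to 0.30, edgeR adjusted *p* = 0.776). *wnt1* was then lower, by -0.91 at 16 hpa (SE 0.237, adjusted *p* = 0.00412 in edgeR) and by -1.35 a day after the cut (SE 0.240, adjusted *p* = 1.74e-05 in edgeR). At 48 hpa the mean was 0.327 ± 0.172 CPM against 1.15 ± 0.166 CPM, or 0.284 times control (log2 fold change -1.81, SE 0.279, edgeR adjusted *p* = 3.27e-07).

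Of the 2 members, 1 was called at 0 hpa, where 11.4% of tested transcripts were called, and both at 3 hpa, where 11.3% were. Neither was called at 6 hpa (17.1%), and both were called at each later time, where the shares over all tested transcripts were 19.2%, 16.7% and 35.9% in order of time. Averaged over the 6 times, which hold differences of both signs, *notum* was lower by -0.39 and *wnt1* by -0.42 on the log2 scale (edgeR adjusted *p* = 2.14e-05 and 0.00082), beside 43.5% of tested transcripts called. At 48 hpa only 91 and 90 of the tested transcripts had a more negative difference than *notum* and *wnt1*. The median difference over all tested transcripts stayed between -0.011 and 0.022 at every time.

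**Figure D3:**
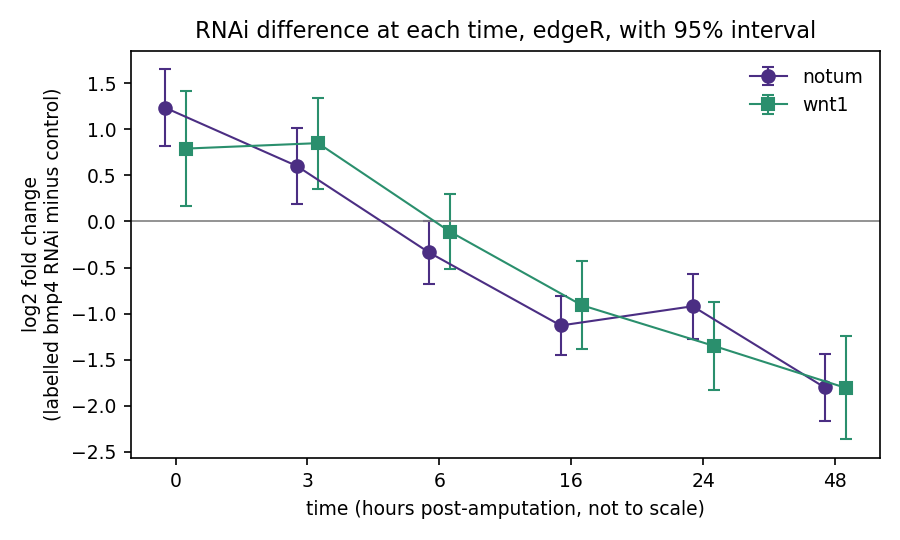
Log2 fold change of the libraries labelled *bmp4* RNAi against control (vertical axis) at each time in hpa (horizontal axis, evenly spaced) for *notum* (circles) and *wnt1* (squares), from the edgeR fit, with 95% intervals. *notum* passes from 1.24 at 0 hpa to -1.80 at 48 hpa and *wnt1* from 0.79 to -1.81, with -0.34 and -0.11 at 6 hpa.

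The interaction of RNAi and time tested whether the change from 0 hpa differed between conditions. For *notum* the interaction of -0.63 at 3 hpa was not called (SE 0.295, adjusted *p* = 0.824 in edgeR), and that of -1.57 at 6 hpa was (SE 0.271, adjusted *p* = 0.00174 in edgeR). The 3 later values were -2.37, -2.16 and -3.04 in order of time (edgeR adjusted *p* = 7.12e-09, 5.37e-07 and 9.29e-13). For *wnt1* it was 0.059 at 3 hpa (95% interval -0.87 to 0.98, edgeR adjusted *p* = 1) while the 6 hpa value was -0.90 (SE 0.374, edgeR adjusted *p* = 0.427), and neither passed. Its 3 later values were -1.70, -2.14 and -2.60 (edgeR adjusted *p* = 0.0161, 0.000479 and 4.35e-06). Leaving out replicate 3 of the labelled libraries at 0 hpa took the *wnt1* value at 16 hpa to -1.56 (edgeR adjusted *p* = 0.0502).

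Few transcripts were called in the early interactions. The share was 0.0378% at 3 hpa, where neither member was called, 0.313% at 6 hpa, where *notum* was 1 of 58 called, and 0.767% at 16 hpa, where both were among 142. It was 1.91% at 24 hpa and 18% at 48 hpa, and both members were called at each. At 16 hpa the interaction of *notum* was the 12th most negative of all tested transcripts and that of *wnt1* the 39th. All interactions share the 0 hpa groups, in which the labelled libraries had more *notum* and more counts of the target transcript. At 6 hpa, where the *notum* interaction was called, the *notum* level was not called different from control by edgeR. The differences at 16, 24 and 48 hpa compare no 0 hpa library, although all libraries shared the spread in the fit, and they were also called for both genes when only the 10 libraries of that time were fitted.

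The order of the levels differed between conditions. Control *notum* ran, from lowest to highest, 0, 3, 6, 24, 48 and 16 hpa, with means of 1.21, 1.85, 4.75, 5.32, 5.73 and 10.7 CPM. Neighbours differed from 0 to 3, from 3 to 6 and from 48 to 16 hpa (exact permutation test of log2(CPM + 1), adjusted *p* = 0.0132 each over 5 pairs), and the means at 6, 24 and 48 hpa were not separated (adjusted *p* = 0.337 and 0.357). In the labelled libraries the order was 48, 0, 24, 3, 6 and 16 hpa, with means of 1.64, 2.84, 2.86, 2.91, 3.74 and 4.89 CPM, and no neighbours passed this test (exact permutation adjusted *p* from 0.0595 to 0.833), although edgeR called the step between 48 and 0 hpa (-0.80, adjusted *p* = 0.00124). Control *wnt1* ran 0, 3, 48, 16, 24 and 6 hpa, with means of 0.357, 0.903, 1.15, 1.66, 1.90 and 2.36 CPM. Only 0 and 3 hpa and 48 and 16 hpa differed (exact permutation adjusted *p* = 0.0397 each), and each of those calls was lost when single libraries were left out, in differences that kept to 0.38 to 0.53 for the first and 0.23 to 0.34 for the second. The former was lost without any 1 of the 5 libraries at 0 hpa, and the latter without any 1 of replicates 2 to 5 at either time. By edgeR the control rise of *wnt1* from 0 to 3 hpa stayed called without any 1 of the 10 libraries compared (adjusted *p* of 0.0157 or less). Under the label *wnt1* ran 48, 0, 24, 16, 3 and 6 hpa, with means of 0.327, 0.623, 0.760, 0.893, 1.65 and 2.16 CPM and no neighbours passing the exact permutation test (adjusted *p* from 0.0992 to 0.587), although edgeR called the step between 48 and 0 hpa here too (-0.92, adjusted *p* = 0.0199).

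The level of *notum* was also set against that of *wnt1* in the same library, a ratio in which depth cancels only if nothing is added to the levels. Only differences in this ratio are read, since the lengths of the transcripts were not available here. With 1 CPM added to each level the log2 ratio was higher under the label at 0 hpa (1.24 ± 0.185 against 0.70 ± 0.119, SD, n = 5 each, exact permutation adjusted *p* = 0.0238 over 6 times). On that scale it was lower at 16 hpa (1.64 ± 0.113 against 2.13 ± 0.221, exact permutation adjusted *p* = 0.0317) and at 48 hpa (0.98 ± 0.323 against 1.64 ± 0.196, exact permutation adjusted *p* = 0.0238), and the differences of -0.028, -0.20 and -0.023 at 3, 6 and 24 hpa did not pass (adjusted *p* = 0.897, 0.0952 and 0.897). These calls did not hold without the pseudocount, which every library allowed since none had a count of 0, an alternative added after the data were seen. The difference was then 0.48 at 0 hpa, -0.21 at 16 hpa and 0.11 at 48 hpa (exact permutation adjusted *p* = 0.206, 0.405 and 0.825), and no time passed. At 48 hpa, where the added 1 CPM exceeds the labelled *wnt1* level, the sign turned, and the edgeR differences of -1.80 for *notum* and -1.81 for *wnt1* were of like size. No RNAi difference in the ratio was therefore called on both scales. In control the ratio without a pseudocount had its lowest mean at 6 hpa (1.02 ± 0.162) and its highest at 16 hpa (2.69 ± 0.267).

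**Figure D4:**
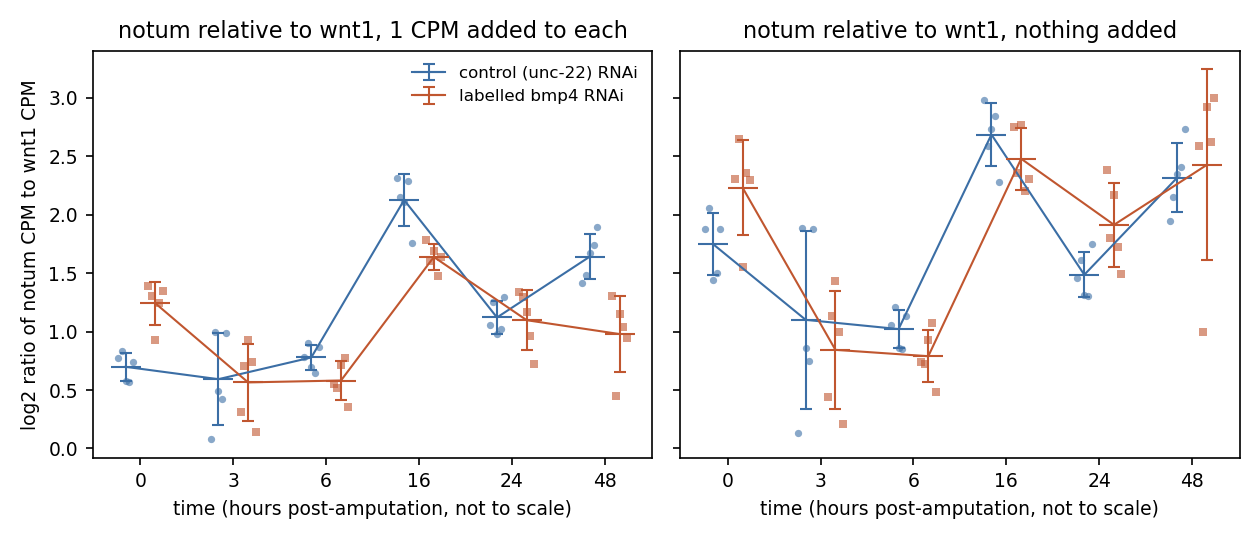
Log2 ratio of *notum* CPM to *wnt1* CPM within each library (vertical axis), with 1 CPM added to each level (left) or nothing added (right), against time in hpa (horizontal axes, evenly spaced). Points are libraries (circles, control; squares, labelled *bmp4* RNAi), and lines and bars give the mean and SD of 5. At 48 hpa the labelled mean is below control on the left (0.98 against 1.64) and level with it on the right (2.43 against 2.32).

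Across the 60 libraries, after the mean of each group was removed, *notum* and *wnt1* deviated together only weakly. Pearson's *r* was 0.38 and Spearman's rho 0.30 (permutation *p* = 0.0204 and 0.0436, adjusted over 5 relations 0.102 and 0.218), and without the 2 libraries farthest from the *wnt1* median *r* was 0.21 (permutation *p* = 0.185). No relation with the *bmp4* transcript, whose counts may include fed RNA, passed within groups. The *r* was -0.17 for *notum* (rho -0.014) and 0.044 for *wnt1* (rho 0.056), with permutation adjusted *p* of 0.662 or more. The *r* for *notum* without the 2 libraries farthest in *bmp4* was 0.017, and that for *wnt1* was 0.20. With *equinox* the *r* was -0.22 for *notum* (rho -0.078) and 0.0082 for *wnt1* (rho 0.050), with permutation adjusted *p* of 0.544 and 0.957, and -0.10 and 0.076 without the 2 libraries farthest in *equinox*. For *wnt1* the median coefficient of variation within groups was near that of counting error (23.4% against 24.2%). For *notum* it was larger (15.7% against 12.8%), and its spread exceeded counting error in 10 of the 12 groups. Counting error draws *r* towards 0. Weak values here therefore do not show that the genes vary independently.

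The transcript whose pattern was most like that of *notum* over the 60 libraries was dd_Smed_v6_1531_0_1 (Pearson's *r* of log2 CPM 0.84, among 18510 transcripts). Its control mean went from 54.1 CPM at 0 hpa to 151 CPM at 24 hpa, and its labelled mean from 62.4 CPM at 0 hpa through 110 CPM at 16 hpa to 65.1 CPM at 48 hpa. For *wnt1* it was dd_Smed_v6_9584_0_1 (*r* = 0.85). Its control means were 19.5, 29.2, 27.9, 29.6 and 22.4 CPM at 0, 6, 16, 24 and 48 hpa, so the highest was at 24 hpa. Its labelled means were 17.0, 27.3 and 16.8 CPM at 0, 6 and 48 hpa. *notum* and *wnt1* had an *r* of 0.68 with each other, which placed *wnt1* 153rd in likeness to *notum* and *notum* 70th in likeness to *wnt1*. These are descriptions over libraries that share groups and times.

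Other Wnt-pathway transcripts came from a list of 5 named by their best human match in the readable part of the study's annotation, of which 3 were tested. These were the matches of LRP5, a Wnt co-receptor, CSNK2A1, a kinase of the casein kinase 2 family, and CTBP2, a transcriptional corepressor. Only the CTBP2 match was called against control at a single time, being lower at 16 hpa (log2 fold change -0.19, edgeR adjusted *p* = 0.0139). LRP5 and CSNK2A1 had differences between -0.16 and 0.13 at all 6 times and were not called. The median of the 3 ranged from -0.16 at 16 hpa to 0.051 at 48 hpa, where the medians over all tested transcripts were 0.015 and 0.011. Such values were small beside those of *notum* and *wnt1* at the same times. From 0 hpa, 1 of the 3 was called higher in control (48 hpa) and 1 lower in the labelled libraries (6 and 16 hpa), and none was called in an interaction. Of all tested transcripts 20.9% were called higher in that control comparison, and 5.4% and 13.5% lower in those of the labelled libraries, so with 3 transcripts these counts are not read as a result.

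Muscle transcripts were read beside these results because both members are expressed in muscle. The 5 listed were the best matches of the calcium pump ATP2A2, the sarcomeric proteins ACTN2 and LDB3, and the collagens COL2A1 and COL21A1, and all had counts in every library. Against control, 4 of 5 were lower at 0 hpa, and 3, 4 and 2 at the next times in order, none was called at 24 hpa, and at 48 hpa LDB3 and COL2A1 were higher (1.14 and 0.51, edgeR adjusted *p* = 3.45e-13 and 0.00395) and ATP2A2 lower (-0.19). Of all tested transcripts 4.95%, 4.32%, 7.43%, 9.56% and 6.51% were called lower at the first 5 times in order, and at 48 hpa 17.3% were called higher and 18.6% lower. Their summed level at 0 hpa was 1703 to 2481 CPM in control and 1226 to 1700 CPM under the label. The 16 hpa sums were 1800 to 2248 CPM and 1242 to 1788 CPM, and at 48 hpa 1200 to 1429 CPM in control and 1347 to 1841 CPM under the label. The listed transcripts went both ways at 48 hpa, so their sum is not read as a measure of muscle content. From 0 hpa, 2 to 4 of the 5 were called lower and 1 higher at each time in control, against 0 to 2 lower and 1 higher in the labelled libraries, and the interaction was called higher for 1 at 24 hpa and 3 at 48 hpa. Over all tested transcripts 3.46% to 20.2% were called lower and 5.35% to 20.9% higher from 0 hpa in control, 4.55% to 14.5% lower and 5.97% to 18.1% higher in the labelled libraries, and 1.18% and 8.46% higher in the interactions at 24 and 48 hpa. What part muscle content had in the levels of *notum* and *wnt1* was not tested.

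The share of counts on 8 mitochondrial transcripts, a sign of library quality, was 0.195% to 0.711%. At 48 hpa it was 0.32% to 0.559% in control and 0.278% to 0.711% in the labelled libraries. Its part in the results was not tested. Mapping kept the best alignment of a read, but the use of strand in counting and the handling of equally good matches are not given in the sources used here, so the values of every transcript named would be uncertain if it had a near-identical copy or an overlapping antisense transcript.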

How the data were processed

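The authors sequenced polyadenylated RNA as short reads, mapped them with bowtie (version 1.2 in the submitters' processing notes) to the dd_Smed_v6 transcriptome, counted reads per contig with bedtools and summed isotigs. The deposited values are raw counts of 28742 transcripts in 60 libraries, which the labels place in 12 groups.

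Transcripts were kept by filterByExpr (minimum count 10, minimum total 15), which left 18510 holding 99.91% of counts. Libraries were scaled by TMM (factors 0.926 to 1.12) and fitted together with edgeR 4.0.16 in R 4.3.3 (robust quasi-likelihood, a mean per group, biological coefficient of variation 12.5%). Tests were two-sided, with Benjamini-Hochberg adjustment over all tested transcripts and a threshold of 0.05. The labels do not say that a replicate number marks a shared animal or batch, so no block was used. Single values were compared by exact permutation of log2(CPM + 1) over 252 splits, with a smallest *p* of 0.00794, and relations by 100000 permutations within groups. DESeq2 1.42.0, other scalings, pseudocounts and filters, and leaving out each library were the alternatives. The procedure was tested on simulated data. No 2 libraries of a group agreed within counting error (smallest chi-square per degree of freedom 3.14).

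Although the rule for the members uses no measured value, the members and lists were chosen with earlier results of these data known. Named transcripts were the members, *bmp4*, *equinox*, the lists, and for each member the 1 transcript most correlated with it. Counts do not separate PCR copies from molecules, so intervals from them cover counting error only. Sequences and genome positions of the transcripts were not used here.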

Additional observations from a re-analysis of the deposited data

Results flagged for a closer look

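The change of *notum* from 0 hpa differed between the libraries labelled *bmp4* RNAi and control at 4 later times by the interaction term of the edgeR fit, with log2 values of -1.57, -2.37, -2.16 and -3.04 for 6, 16, 24 and 48 hpa. For *wnt1* it differed at the last 3 times, by -1.70, -2.14 and -2.60. These terms include the difference at 0 hpa, which was 1.24 for *notum*. At 6 hpa the *notum* level itself was not called different from control (-0.34, edgeR adjusted *p* = 0.19). At 48 hpa both genes were called above their 0 hpa level in control and below it in the labelled libraries. For *wnt1* the labelled call was lost without some single libraries and in a fit of only the libraries compared.

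A single library stood apart from the rest of its group for 1 of 24 combinations of gene and group, where about 1 in 20 would by chance. This was the *wnt1* level in labelled *bmp4* RNAi replicate 2 of the 24 hpa group, at 1.42 CPM (21 counts) against 0.551 to 0.695 CPM in the other replicates. The same library had the highest *notum* level of its group, at 4.94 CPM against 1.59 to 2.98 CPM. Without it the RNAi difference of *wnt1* at 24 hpa was -1.68 in place of -1.35, and that of *notum* was -1.20 in place of -0.92.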

How the results depend on the processing

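Of 622 values under other settings, 581 kept their direction and their side of the threshold (for counts of list members, stayed within 1.5 times), and of 900 values with 1 library left out, 840 did. The 622 include sign flips of same-numbered pairs, which cannot pass the threshold, with 18 values counted as kept and 8 as changed. The lower levels of both genes under the *bmp4* RNAi label at 16, 24 and 48 hpa, and of *notum* above control at 0 hpa, were called under every alternative run. *wnt1* had as few as 3 counts in a library, which limits the precision of its values. The causes of the changes below were not tested.

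For *notum* at 3 hpa the RNAi difference was no longer called without the low-count filter (0.59) or with the replicate number as a block (0.60, edgeR adjusted *p* = 0.0528). The *notum* difference at 6 hpa (-0.28) and the *wnt1* difference at 0 hpa (0.25) were called by the exact permutation test only. With only the libraries compared, the *wnt1* difference at 3 hpa (0.86) and the *wnt1* change at 48 hpa in the labelled libraries (-0.93) lost their calls. With library totals alone the uncalled *notum* changes in the labelled libraries turned to 0.025 at 3 hpa and 0.022 at 24 hpa, and the control *wnt1* difference between 16 and 48 hpa (0.23) lost its call. Uncalled values that changed sign were the ratio differences at 24 hpa (0.105 with pseudocount 0.5 and 0.43 with none) and 3 hpa (0.018 with pseudocount 2), the relation of *notum* with *bmp4* (0.017 without the 2 farthest libraries) and that of *wnt1* with *equinox* (-0.042 with pseudocount 0.5). Without a pseudocount, tried after seeing the data, the ratio differences at 0 hpa (0.48) and 16 hpa (-0.21) lost their calls and that at 48 hpa turned to 0.11.

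Same-numbered libraries did not deviate together over all group pairs (median *r* of deviations -0.004). Of 30 pairs of control and labelled libraries at a time, 4 were above 0.1, with *r* from -0.21 to 0.31. These values cannot exclude a pairing at single times. Exact sign flips of same-numbered pairs cannot go below *p* = 0.0625, so the 5 control neighbours called for *notum* (0.36, 1.01 and 0.78) and *wnt1* (0.47 and 0.30) and the ratio differences at 0, 16 and 48 hpa (0.54, -0.49 and -0.66) could not be called by pairing.

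The number of listed Wnt-pathway transcripts called against control went from 1 to 2 at 16 hpa with only the libraries compared, from 0 to 1 at 24 hpa with RLE size factors, library totals or DESeq2, and from 0 to 1 at 48 hpa with library totals. With library totals it also went from 0 to 1 at 24 hpa in both conditions and from 0 to 2 at 48 hpa in the labelled libraries, and with only the libraries compared from 1 to 0 at 6 hpa there. The muscle count went from 1 to 0 at 48 hpa in the labelled libraries with RLE, no filter, DESeq2 or only the libraries compared, from 2 to 1 at 6 hpa with the last, and from 0 to 1 in the 6 hpa interaction with library totals or DESeq2.

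Leaving out single libraries gave these ranges where any call or sign changed. The *notum* RNAi difference at 3 hpa was 0.51 to 0.70, and those of *wnt1* 0.72 to 1.05 at 3 hpa and -0.18 to 0.020 at 6 hpa. In the labelled libraries the change from 0 hpa was -0.12 to 0.070 at 3 hpa and -0.30 to 0.15 at 24 hpa for *notum*, and -0.075 to 0.39 at 24 hpa and -1.23 to -0.76 at 48 hpa for *wnt1*. The *wnt1* interaction was -0.071 to 0.26 at 3 hpa and -1.82 to -1.56 at 16 hpa. The ratio difference was -0.16 to 0.079 at 3 hpa and -0.084 to 0.069 at 24 hpa. Neighbouring *notum* levels under the label differed by 0.49 to 0.66 (0 and 48 hpa), -0.21 to 0.087 (24 and 0 hpa), -0.071 to 0.23 (3 and 24 hpa), 0.21 to 0.38 (6 and 3 hpa) and 0.27 to 0.38 (16 and 6 hpa). Neighbouring *wnt1* levels differed by -0.018 to 0.16 under the label (24 and 0 hpa), and in control by 0.38 to 0.53 (3 and 0 hpa) and 0.23 to 0.34 (16 and 48 hpa).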
